A study of Homo sapiens with 18 samples.

Results

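The genes described here encode the proteins of the mitochondrial ribosome. They are the genes on the array whose symbol is MRPL or MRPS followed by a number and at most 1 letter, taken from probe sets that carry exactly 1 symbol, with the brightest probe set kept for each gene. This gave 73 genes of the 18417 measured, 48 of them named for the large subunit (MRPL) and 25 for the small subunit (MRPS). MRPL51, MRPS6, MRPS24 and MRPS28 share their probe sets with other symbols and were not analysed here.

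The mitochondrial ribosome translates the few proteins that mitochondrial DNA encodes, all of them subunits of the respiratory chain and ATP synthase. All of its proteins are encoded in the nucleus, made in the cytosol and imported. Many descend from bacterial ribosomal proteins, and others have no bacterial counterpart and are called mitochondria-specific. p53 is a transcription factor that induces genes of growth arrest and cell death, and its N-terminally shortened isoform ΔNp53 can form mixed complexes with the full-length protein.

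The cells were NCI-H1299, a non-small cell lung carcinoma line without p53 of its own, so every group shares the lack of endogenous p53. They were transfected transiently with plasmids of the pIRES-2EGFP type, which also make green fluorescent protein, fluorescent cells were sorted, and total RNA was taken after 40 hours. In the first set the cells received ΔNp53:WTp53, WTp53 (wild-type p53) or empty vector, in experiments 0, 4 and 5. In the second set, which the series calls control experiments, they received tethered WTp53, WTp53 or empty vector, in experiments d, e and f. Each of the 6 groups had 3 arrays. The transfection field of the tethered arrays reads ΔNp53:WTp53, against their titles and descriptions, and they were grouped by title. The p53 in these cells came from a transfected plasmid, so the comparisons concern introduced p53 in 1 cell line. The series describes the experiments of the first set as independent transfections, and for the second set the sources used here do not say whether separate cultures were used, so p-values there measure the spread between these arrays, which may be technical.

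Values are log2 intensities, and a difference of 1 on that scale is a 2-fold change. The sets were normalized apart, so levels are set side by side only within a set. The median spread (SD) of the 73 genes within a group was 0.12 for ΔNp53:WTp53, 0.07 for WTp53 and 0.07 for vector in the first set, and 0.08 for tethered WTp53, 0.04 for WTp53 and 0.06 for vector in the second. The p53 target CDKN1A, which encodes the cell cycle inhibitor p21, was higher by 4.62 ± 0.26 (SE) with WTp53 than with vector in the first set and by 3.13 ± 0.06 in the second (limma adjusted p = 5.99e-06 and 1.56e-10). Keratins KRT8 and KRT18 and vimentin, which the line expresses, were at or above the 88.9th percentile of all genes on every array. Of 4 markers of differentiated lung epithelium, 2 rose with ΔNp53:WTp53 and 3 with tethered WTp53 against vector, and of 5 leukocyte markers 2 rose with WTp53 in the first set. All of these were at or below the 57.8th percentile on every array, and their part in the results below was not tested. In bulk RNA, fewer cells with a transcript and less of it per cell cannot be told apart.

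The first comparison asks how the 73 genes differed when either p53 construct was present, against vector, in the first set. With ΔNp53:WTp53, 43 of the 73 genes fell and 4 rose. With WTp53, 26 fell and 7 rose. A gene was called when limma's adjusted p over all 18417 genes was below 0.05. Among all genes, 36.1% were called in either direction with ΔNp53:WTp53, 15.7% rising and 20.3% falling, and 31.8% with WTp53, 15.2% rising and 16.6% falling. The median of the 73 differences was −0.31 with ΔNp53:WTp53 and −0.18 with WTp53, beside 0.01 and 0.02 over all genes. In both comparisons the same vector arrays were used.

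These genes are brighter than most, and bright genes passed the test more often. Among the 9209 brighter genes of the first set, 35.9% fell with ΔNp53:WTp53 and 28.4% with WTp53, while of the 69 mitochondrial ribosomal protein genes among them 59.4% and 34.8% fell. The share that fell with WTp53 was therefore near that of bright genes in general. The median difference of the 9209 brighter genes was −0.10 with ΔNp53:WTp53 and −0.06 with WTp53.

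Leaving out the ΔNp53:WTp53 array of experiment 4 lowered the 47 calls to 31, where 28.2% of all genes were called, and for WTp53 the 33 calls came to 19 without its array of experiment 5 and 18 without the vector array of experiment 4, where 23.6% and 24.4% of all genes were called. With all arrays of experiment 4 left out, 3 genes were called with ΔNp53:WTp53 and 7 with WTp53, and without experiment 5 the counts were 12 and 7. Of all genes, 10.2% and 11.5% were called without experiment 4 and 14.1% and 13.7% without experiment 5, so the counts of these fits are near or below the general share.

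**Figure D1:**
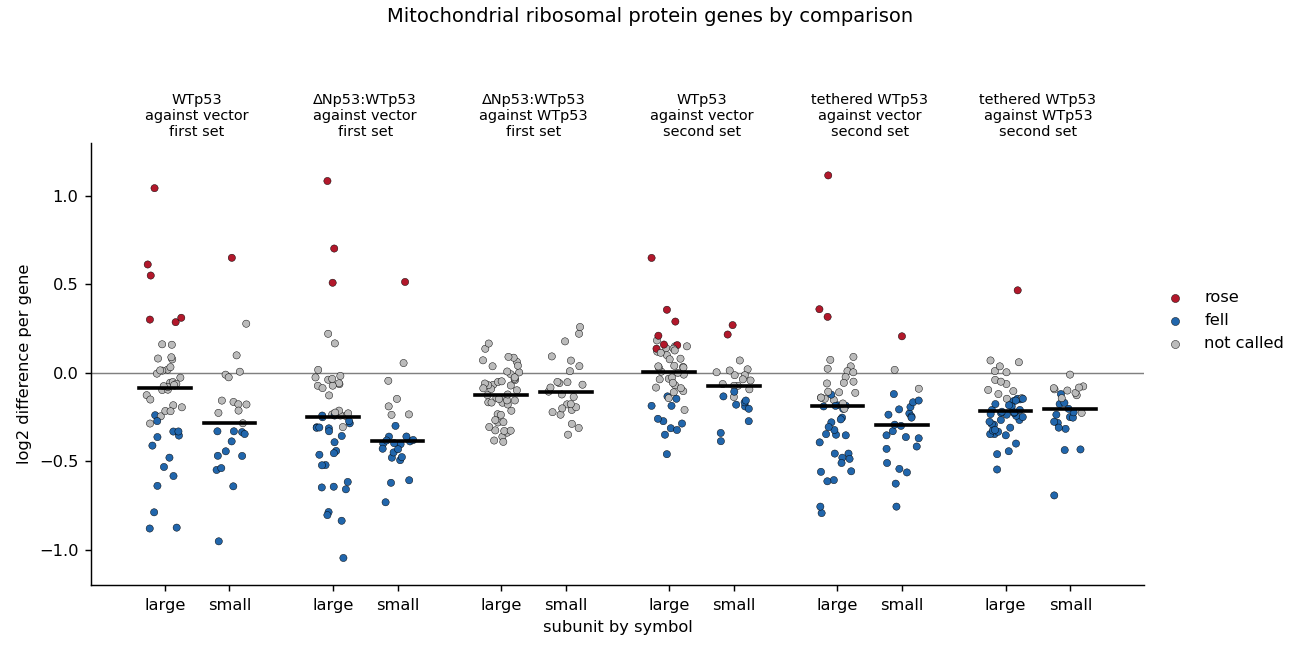
Difference of each of the 73 genes (log2, 1 point per gene) in the 6 comparisons, split by subunit, with red for genes that rose, blue for genes that fell (limma adjusted p below 0.05) and grey for the rest; black bars are medians. With ΔNp53:WTp53 and with tethered WTp53, most points lie below 0, and MRPL49 stands highest in every comparison with vector.

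The small subunit lay lower than the large in every comparison with vector. With ΔNp53:WTp53, 18 of 25 small-subunit genes fell and 1 rose (median −0.39), and 25 of 48 large-subunit genes fell and 3 rose (median −0.25). WTp53 gave 12 falls and 1 rise in the small subunit (median −0.29) and 14 falls and 6 rises in the large (median −0.09). With subunits taken by symbol, this order held within each experiment: the small-subunit medians with ΔNp53:WTp53 against vector were −0.20, −0.47 and −0.43 in experiments 0, 4 and 5, and the large-subunit medians were −0.17, −0.34 and −0.30. Experiment 0 had the smallest differences in both. In solved structures of the human mitochondrial ribosome MRPS30 and MRPS18A sit in the large subunit, and with both counted there the medians with WTp53 were −0.23 for 23 small-subunit genes and −0.10 for 50 large-subunit genes. Counted so, the medians with ΔNp53:WTp53 were −0.39 and −0.26. In experiment 0 alone they were −0.17 for the small and −0.18 for the large subunit, so the order did not hold there.

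MRPL49, a mitochondria-specific protein of the large subunit, had the largest rise of all 73 genes. It had log2 intensities of 9.66, 9.98 and 9.98 with ΔNp53:WTp53 in experiments 0, 4 and 5, of 9.67, 9.92 and 9.91 with WTp53, and of 8.84, 8.72 and 8.81 with vector. Every p53 array lay above every vector array, and the ranges of the ΔNp53:WTp53 and WTp53 arrays overlapped. Against vector it was 2.12-fold higher with ΔNp53:WTp53 (limma adjusted p = 1.02e-04) and 2.06-fold higher with WTp53 (log2 difference 1.04 ± 0.11 SE, limma adjusted p = 1.35e-04). FAU, the neighbour of MRPL49 in the gene table, encodes a ubiquitin-like protein fused to a cytosolic small-subunit protein. It rose by 0.33 ± 0.08 with ΔNp53:WTp53 and by 0.48 ± 0.08 with WTp53 (limma adjusted p = 0.00743 and 0.00116).

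The other rises shared by both constructs were MRPS26, MRPL39 and MRPL18. MRPS26, a mitochondria-specific protein of the small subunit, had values of 7.76, 7.96 and 7.99 with ΔNp53:WTp53, 7.98, 8.15 and 7.99 with WTp53, and 7.46, 7.38 and 7.33 with vector. Its p53 arrays lay above its vector arrays, by 0.51 ± 0.09 with ΔNp53:WTp53 and 0.65 ± 0.09 with WTp53 (limma adjusted p = 0.00206 and 6.20e-04). MRPL39 lies near the exit of the tunnel through which new proteins leave, and rose by 0.70 ± 0.16 with ΔNp53:WTp53 and 0.61 ± 0.16 with WTp53 (limma adjusted p = 0.00568 and 0.0128). MRPL18 is the relative of the bacterial protein that binds 5S ribosomal RNA, and rose by 0.51 ± 0.08 and 0.55 ± 0.08 (limma adjusted p = 8.98e-04 and 6.25e-04).

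The deepest falls took in proteins from several places on the ribosome. MRPL1 belongs to the mobile stalk beside the site where used transfer RNA leaves. Its values were 7.54, 7.22 and 7.29 with ΔNp53:WTp53, 7.58, 7.59 and 7.38 with WTp53, and 8.23, 8.46 and 8.51 with vector. The p53 arrays did not overlap with the vector arrays, and MRPL1 was 2.07-fold lower with ΔNp53:WTp53 and 1.84-fold lower with WTp53 (limma adjusted p = 1.47e-04 and 3.97e-04). MRPS30, a protein first described for a link to programmed cell death, had values of 7.92, 7.25 and 7.24 with ΔNp53:WTp53, 7.62, 7.12 and 7.0 with WTp53, and 8.32, 8.12 and 8.16 with vector. In both p53 groups experiment 0 was the highest array, and the p53 groups stayed below vector. The difference was −0.73 ± 0.20 with ΔNp53:WTp53 and −0.95 ± 0.20 with WTp53 (limma adjusted p = 0.0173 and 0.00517), and 3 of the 9 fits without 1 array lost the call with ΔNp53:WTp53, with adjusted p up to 0.0706.

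MRPL44, whose fold resembles a ribonuclease, fell by 0.84 ± 0.12 with ΔNp53:WTp53 and 0.79 ± 0.12 with WTp53 (limma adjusted p = 7.17e-04 and 0.00103). MRPL50, which is mitochondria-specific, fell by 0.80 ± 0.16 and 0.88 ± 0.16 (limma adjusted p = 0.00281 and 0.00193). MRPL46, of the central protuberance that faces the small subunit, had 8.35, 7.87 and 7.72 with ΔNp53:WTp53, 8.30, 8.14 and 7.93 with WTp53, and 8.63, 8.88 and 8.79 with vector. All of its p53 arrays lay below all of its vector arrays, with differences of −0.79 ± 0.16 and −0.64 ± 0.16 (limma adjusted p = 0.00395 and 0.0129). MRPS5, related to a bacterial protein of decoding accuracy, fell by 0.38 ± 0.09 with ΔNp53:WTp53 and by 0.64 ± 0.09 with WTp53 (limma adjusted p = 0.00899 and 6.31e-04).

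**Figure D2:**
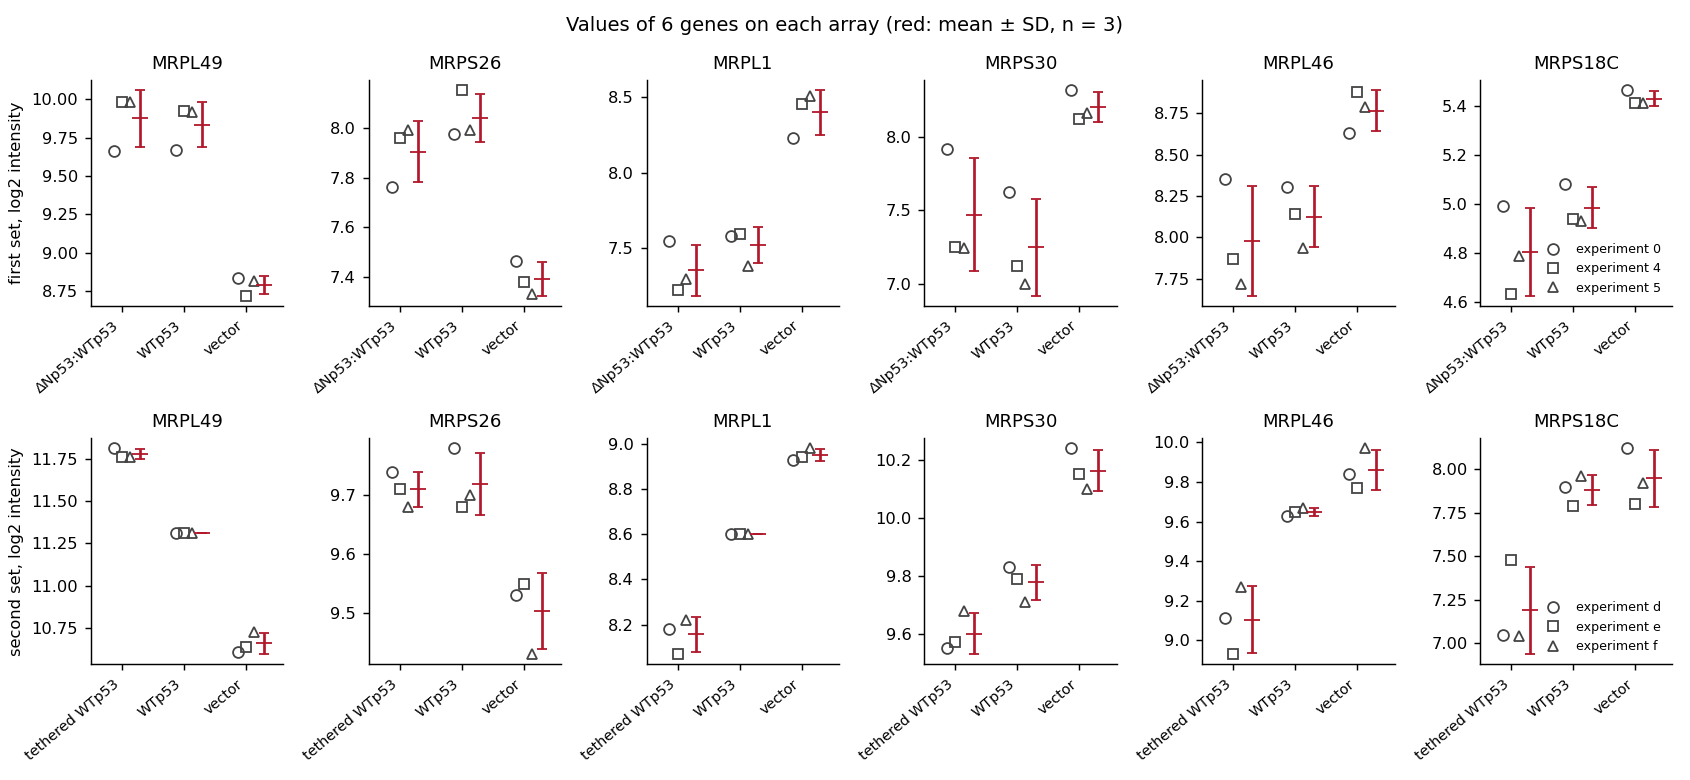
Log2 intensity of 6 genes on each of the 18 arrays, with the first set above and the second set below, symbols for the experiments and red bars for mean ± SD (n = 3). MRPL49 and MRPS26 are higher with either p53 construct than with vector in both sets, and MRPL1 and MRPS30 are lower.

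Counts were also taken for 3 regions of the large subunit, without a test between them. The L7/L12 stalk recruits translation factors to the ribosome. Of its 5 genes and those at its base, MRPL10, MRPL11, MRPL12, MRPL53 and MRPL54, 2 fell with ΔNp53:WTp53, namely MRPL10 by 0.31 ± 0.08 and MRPL54 by 0.24 ± 0.08 (limma adjusted p = 0.0101 and 0.0417). The MRPL54 call was lost in 8 of the 9 fits without 1 array, with adjusted p up to 0.15. With WTp53, MRPL10 fell by 0.24 ± 0.08 and MRPL11 rose by 0.29 ± 0.08 (limma adjusted p = 0.0365 and 0.0164), and these calls were lost in 6 and 1 of those fits. Of 8 genes near the tunnel exit, 6 fell and MRPL39 rose with ΔNp53:WTp53, and with WTp53 4 fell while MRPL39 and MRPL23 rose. MRPL23, where targeting factors dock in bacteria, rose by 0.31 ± 0.11 with WTp53 (limma adjusted p = 0.0467), a call lost in 6 of the 9 fits without 1 array. Of 6 genes of the central protuberance, 2 fell and 1 rose with ΔNp53:WTp53, and 1 fell and 1 rose with WTp53. By origin, 26 of 45 genes with a bacterial homolog and 17 of 28 mitochondria-specific genes fell with ΔNp53:WTp53, and 15 and 11 with WTp53.

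The 3 relatives of bacterial S18 all fell with both constructs. Mitochondrial ribosomes carry them at different places, MRPS18A in the large subunit and the other two in the small. MRPS18C had values of 4.99, 4.64 and 4.79 with ΔNp53:WTp53, 5.08, 4.94 and 4.93 with WTp53, and 5.46, 5.41 and 5.41 with vector, without overlap between p53 and vector arrays. Its differences were −0.62 ± 0.10 and −0.44 ± 0.10 (limma adjusted p = 0.00112 and 0.00745). MRPS18B fell by 0.49 ± 0.11 and 0.39 ± 0.11 (limma adjusted p = 0.00576 and 0.0214), and MRPS18A by 0.36 ± 0.08 and 0.54 ± 0.08 (limma adjusted p = 0.00717 and 9.25e-04). The call of MRPS18B with WTp53 was lost in 3 of the 9 fits without 1 array.

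The second comparison sets ΔNp53:WTp53 against WTp53 in the first set. The amount of p53 was not compared between these groups, so a difference is not read as an effect of ΔNp53 alone. CDKN1A had a mean of 8.96 with ΔNp53:WTp53 and 9.89 with WTp53, and MDM2, another p53 target, 11.31 and 11.62. None of the 73 genes passed the threshold in limma, where 2.44% of all genes did, 1.56% rising and 0.88% falling. At an unadjusted p below 0.05, 18 of the 73 genes were lower and 1 was higher, 26.0% of them, beside 18% of all genes. The median difference was −0.12, beside −0.01 over all genes, and 56 of the 73 differences were below 0. So were 9870 of all 18417 differences, and 53 of those of the 58 measured cytosolic ribosomal genes (median −0.09). This direction is therefore not read as particular to the 73 genes. By experiment the median of the 73 genes was −0.07, −0.15 and −0.09 (experiments 0, 4 and 5). Subunits were alike in this, with medians of −0.12 for the large and −0.11 for the small. Other fits did call genes: the fit over all 18 arrays called 16, in which 14.6% of all genes were called, and leaving out the ΔNp53:WTp53 array of experiment 0 gave 11, where 12.4% of all genes were called. Without the WTp53 array of experiment 0 it was 1, where 1.31% of all genes were called, and without experiment 0 in all groups 7, where 13.4% were. Of these counts, 16 of the 73 lies above the general share and 7 lies below it, and the others are near it.

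Smallest in adjusted p was MRPL11, at the base of the stalk. It had 8.13, 8.27 and 8.22 with ΔNp53:WTp53 and 8.55, 8.51 and 8.54 with WTp53, beside 8.27, 8.27 and 8.20 with vector. The ΔNp53:WTp53 arrays lay below the WTp53 arrays and overlapped with vector, and the difference from WTp53 was −0.33 ± 0.08 (limma adjusted p = 0.0576). MRPL41, a mitochondria-specific protein that has been studied for effects on p53, showed the same order: 8.59, 8.70 and 8.80 with ΔNp53:WTp53, 8.99, 9.05 and 9.03 with WTp53, and 8.73, 8.73 and 8.71 with vector. Its level was 0.30 ± 0.08 above vector with WTp53 (limma adjusted p = 0.0167, lost in 4 of the 9 fits without 1 array) and −0.03 ± 0.08 with ΔNp53:WTp53 (limma adjusted p = 0.851). Between the constructs the difference was −0.33 ± 0.08 (limma adjusted p = 0.0674). Over all 73 genes, the 95% intervals of this difference reached from −0.66 at the lowest bound to 0.67 at the highest, so the widest of them hold differences as large as many that passed the test against vector.

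The third comparison repeats WTp53 against vector in the second set, with arrays of its own. There, 21 of the 73 genes fell and 9 rose, where 36.8% of all genes were called, 17.9% rising and 18.9% falling. The median was −0.04, beside −0.02 over all genes. Among the 9209 brighter genes (median −0.01) 30% fell and 29.4% rose, and of the 70 mitochondrial ribosomal protein genes there 32.9% fell and 17.1% rose. The small subunit again lay lower, with 10 falls and 2 rises among 25 (median −0.07), against 11 falls and 7 rises among 48 in the large (median 0.00). The fit over all 18 arrays called 11 of the 73, and 19.6% of all genes.

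The differences of single genes were then set side by side between the sets. WTp53 against vector shares no array between the sets, and across the 73 genes the differences correlated with Pearson r = 0.78 and Spearman rho = 0.73, beside 0.79 and 0.66 across all genes. The points share their cell line, construct and array type, and genes are not independent replicates. 49 of the 73 genes (67.1%) had the same sign in both, beside 67.3% of all genes. 16 genes fell in both sets, 61.5% of the 26 that fell in the first and 76.2% of the 21 that fell in the second, beside 71.7% and 63.1% for falls over all genes. MRPL49, MRPL18, MRPL39 and MRPS26 rose in both. In 57 of the 73 (78.1%) the difference was larger in size in the first set, as in 72.5% of all genes.

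**Figure D3:**
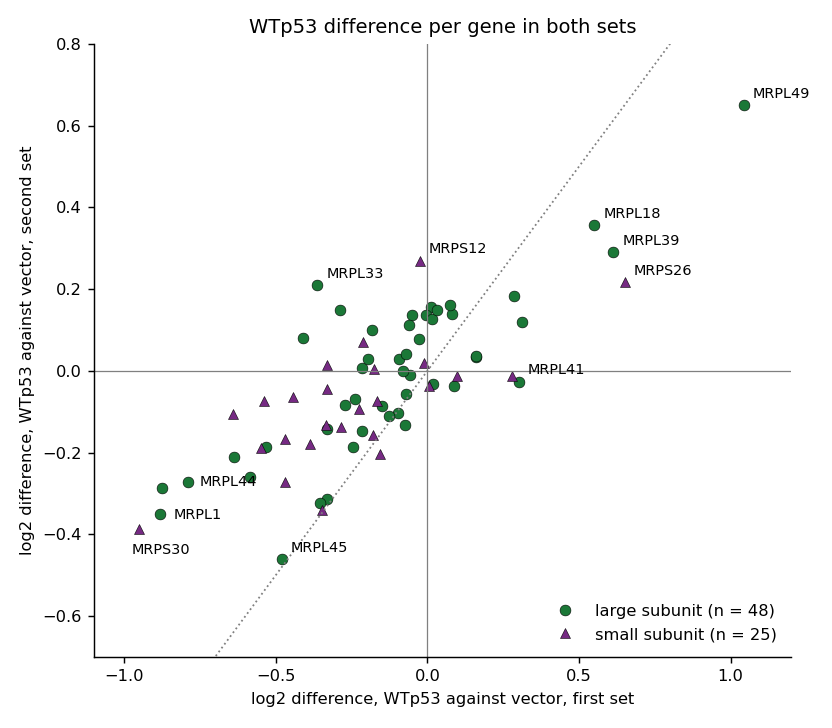
Log2 difference of WTp53 against vector for each of the 73 genes, in the first set on the horizontal axis and the second set on the vertical axis, with circles for the large and triangles for the small subunit and a dotted line where both are equal. MRPL49 lies at the upper right, MRPS30 and MRPL1 at the lower left, and MRPL33 falls in the first set and rises in the second.

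MRPL49 had 11.31 on all 3 WTp53 arrays of the second set, whose deposited values have 2 decimals, and 10.61, 10.64 and 10.73 with vector. It rose by 0.65 ± 0.04 (limma adjusted p = 8.12e-07). The next rises were MRPL18 at 0.36 ± 0.06, MRPL39 at 0.29 ± 0.06 and MRPS12 at 0.27 ± 0.07 (limma adjusted p = 7.66e-04, 0.00337 and 0.0151). MRPS12 is the relative of the bacterial decoding-centre protein S12, and its call was lost in 2 of the 9 fits without 1 array. MRPS26 rose by 0.22 ± 0.05 (limma adjusted p = 0.00385).

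The largest fall was that of MRPL45, a tunnel-exit protein that helps to hold the ribosome at the inner membrane. It had 11.19, 11.04 and 11.15 with WTp53 and 11.55, 11.55 and 11.66 with vector, and the groups did not overlap (−0.46 ± 0.07, limma adjusted p = 2.34e-04). MRPS30 had 9.83, 9.79 and 9.71 with WTp53 and 10.24, 10.15 and 10.10 with vector, again without overlap (−0.39 ± 0.05, limma adjusted p = 2.06e-04). MRPL1 stood at 8.60 on all 3 WTp53 arrays, against 8.93, 8.94 and 8.98 with vector (−0.35 ± 0.05, limma adjusted p = 1.22e-04). MRPS27, which is built of repeats that bind RNA in related proteins, and MRPL35 fell by 0.34 ± 0.05 and 0.32 ± 0.04 (limma adjusted p = 1.85e-04 and 1.22e-04). Of the stalk genes MRPL11 came closest to a call (0.18 ± 0.07, limma adjusted p = 0.0701), and of the S18 relatives MRPS18B fell by 0.18 ± 0.05 (limma adjusted p = 0.0227, lost in 4 of the 9 fits without 1 array).

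The fourth comparison concerns the tethered construct, against vector and against WTp53 in the same set. Against vector, 48 of the 73 genes fell and 4 rose, where 47.8% of all genes were called, 21.6% rising and 26.2% falling. Against WTp53, 49 fell and 1 rose, where 32.4% of all genes were called, 14.9% rising and 17.5% falling. The medians were −0.23 and −0.21, beside 0.00 and 0.02 over all genes, and 67 of the 73 genes were below WTp53. Of all 18417 genes 8298 were below WTp53, and of the 58 measured cytosolic ribosomal genes 56 were (median −0.10). The direction alone is therefore not read as particular to the 73 genes. Both comparisons share the tethered arrays, and 39 genes fell in both, a count that was not taken over all genes. Among the 9209 brighter genes, 43.8% fell against vector and 34.3% against WTp53, and of the 70 mitochondrial ribosomal protein genes there 74.3% and 71.4% fell. The medians of the 9209 brighter genes were −0.06 against vector and −0.04 against WTp53.

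Against WTp53 the median of the 73 genes was −0.17, −0.27 and −0.16 in experiments d, e and f. The tethered array was lower than the WTp53 array by the median in each of these same-letter pairs. The count of 50 calls came to 23 in the fit over all 18 arrays, which shares one spread over both sets, and 10.1% of all genes were called there. Without experiment d, e or f in all groups it was 27, 27 and 31, where 17.6%, 20.1% and 22.7% of all genes were called. The tethered arrays varied more among themselves than the WTp53 arrays did, with a median SD of 0.08 against 0.04 over these genes.

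The subunits differed against vector and not in the same way against WTp53. In the small subunit 22 of 25 genes fell and 1 rose against vector (median −0.29), and in the large 26 of 48 fell and 3 rose (median −0.19). Against WTp53, 15 of 25 small-subunit genes fell (median −0.20), and 34 of 48 large-subunit genes fell and 1 rose (median −0.21). All 25 small-subunit differences from WTp53 were below 0, as were 42 of 48 in the large and 56 of 58 of the cytosolic ribosome. No test of one subunit against the other was made.

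**Figure D4:**
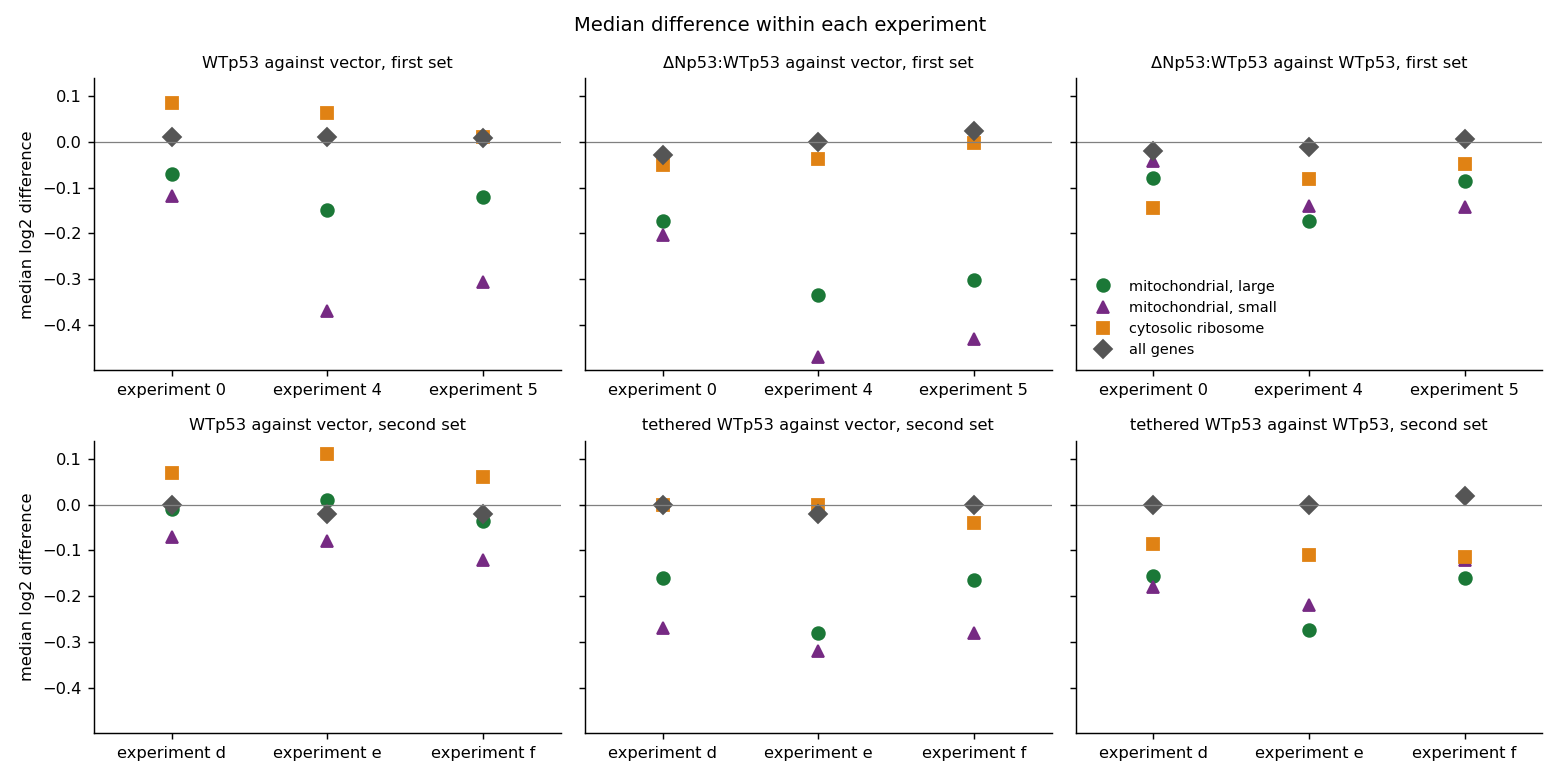
Median log2 difference within each experiment for genes of the large and small mitochondrial subunit, the cytosolic ribosome and all genes, in the 6 comparisons. With subunits taken by symbol, the small-subunit triangle lies under the large-subunit circle in all experiments of the 4 comparisons with vector, and both lie under all genes with tethered WTp53 in every experiment.

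MRPL49 was the 1 gene that rose against both. It had 11.81, 11.76 and 11.76 with tethered WTp53, against 11.31 on each WTp53 array and 10.61, 10.64 and 10.73 with vector. The 3 groups did not overlap, and tethered WTp53 gave 2.17-fold more than vector and 1.38-fold more than WTp53 (limma adjusted p = 7.36e-09 and 4.53e-05). MRPL39, MRPL18 and MRPS26 rose against vector by 0.36 ± 0.06, 0.32 ± 0.06 and 0.21 ± 0.05 (limma adjusted p = 5.22e-04, 0.00112 and 0.00362). Against WTp53 these 3 differed by 0.07, −0.04 and −0.01 (limma adjusted p = 0.415, 0.644 and 0.891). FAU, the neighbour of MRPL49, rose against vector by 0.60 ± 0.06 (limma adjusted p = 1.48e-05), and with WTp53 also by 0.60 ± 0.06 (limma adjusted p = 2.77e-05). Between tethered WTp53 and WTp53 it differed by −0.003 ± 0.06 (limma adjusted p = 0.972), unlike MRPL49.

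MRPS18C had the largest fall against WTp53. Its values were 7.05, 7.48 and 7.04 with tethered WTp53, 7.90, 7.79 and 7.96 with WTp53, and 8.12, 7.80 and 7.92 with vector. All tethered arrays were below the others, and WTp53 and vector overlapped. MRPS18C was 1.62-fold lower than with WTp53 and 1.69-fold lower than with vector (limma adjusted p = 0.00124 and 2.30e-04). MRPS18A fell by 0.19 ± 0.04 against vector and 0.12 ± 0.04 against WTp53 (limma adjusted p = 0.00217 and 0.0451), the second call being lost in 8 of the 9 fits without 1 array. MRPS18B fell by 0.29 ± 0.05 against vector (limma adjusted p = 8.54e-04) and differed by −0.11 ± 0.05 from WTp53 (limma adjusted p = 0.134).

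MRPL46 had 9.11, 8.93 and 9.27 with tethered WTp53, 9.63, 9.65 and 9.67 with WTp53, and 9.84, 9.77 and 9.97 with vector. The groups stood in that order without overlap, 1.46-fold lower than with WTp53 and 1.69-fold lower than with vector (limma adjusted p = 5.40e-04 and 1.21e-05). MRPL46 and MRPS11, a small-subunit protein, are neighbours in the gene table. MRPS11 fell by 0.25 against WTp53 and by 0.23 against vector (limma adjusted p = 0.0208 and 0.0199), and by 0.36 with ΔNp53:WTp53 against vector (limma adjusted p = 0.0215), and was named here for its position after its values were seen. With WTp53, MRPS11 stayed near vector, with means of 7.97 against 7.98 in the first set and 11.2 against 11.18 in the second. The means of MRPL46 were 8.13 against 8.77 and 9.65 against 9.86, so the neighbours did not move together there. MRPL1 had 8.18, 8.07 and 8.22 with tethered WTp53, below the 8.60 of WTp53 and the 8.93 to 8.98 of vector (limma adjusted p = 8.57e-05 and 1.37e-07). MRPS14, a protein of the small-subunit head, had 9.01, 8.89 and 9.08 with tethered WTp53, against 9.43 on each WTp53 array and 9.67, 9.56 and 9.63 with vector, which also did not overlap (−0.44 ± 0.05 and −0.63 ± 0.05, limma adjusted p = 2.05e-04 and 2.35e-06).

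Some genes moved one way with WTp53 and the other with the tethered construct. MRPL48, of the central protuberance, had 8.89, 8.96 and 9.03 with tethered WTp53, 9.43, 9.39 and 9.44 with WTp53, and 9.33, 9.24 and 9.28 with vector. WTp53 was the highest group and tethered WTp53 the lowest, with no overlap. The tethered arrays differed by −0.46 ± 0.05 from WTp53 and by −0.32 ± 0.05 from vector (limma adjusted p = 8.18e-05 and 1.51e-04), and WTp53 by 0.14 ± 0.05 from vector (limma adjusted p = 0.0422). MRPL4, one of the proteins that line the exit tunnel in bacteria, and MRPL33 had calls in the same directions. MRPS12 had 10.86, 10.71 and 10.93 with tethered WTp53, 11.19, 11.02 and 11.05 with WTp53, and 10.71, 10.80 and 10.94 with vector, so tethered WTp53 overlapped with vector and lay under WTp53 (−0.25 ± 0.07, limma adjusted p = 0.025, lost in 4 of the 9 fits without 1 array).

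Of the 5 stalk genes, MRPL12 fell against vector by 0.18 ± 0.05 (limma adjusted p = 0.00808). Against WTp53, MRPL12 fell by 0.15 ± 0.05 and MRPL54 by 0.22 ± 0.07 (limma adjusted p = 0.0351 and 0.0308), calls lost in 5 and 4 of the 9 fits without 1 array. MRPL41 had 11.04, 10.88 and 11 with tethered WTp53, 11.17, 11.21 and 11.22 with WTp53, and 11.20, 11.22 and 11.26 with vector. The tethered arrays stood apart from the overlapping WTp53 and vector arrays, lower by 0.23 ± 0.05 than WTp53 and by 0.25 ± 0.05 than vector (limma adjusted p = 0.0048 and 0.00107). MRPS30 fell by 0.56 ± 0.05 against vector and 0.18 ± 0.05 against WTp53 (limma adjusted p = 6.68e-06 and 0.0304), and 4 of the 9 fits without 1 array lost the second call.

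ΔNp53:WTp53 and tethered WTp53 were measured in different sets with different vector arrays, so their own differences from vector share no array. Across the 73 genes these correlated with r = 0.85 and rho = 0.74, beside 0.85 and 0.78 across all genes. 62 genes (84.9%) had the same sign, beside 76.3% of all genes. 36 fell in both, 83.7% of the 43 and 75% of the 48, beside 86.4% and 67.0% for falls over all genes. All 18 small-subunit genes that fell with ΔNp53:WTp53 also fell with tethered WTp53. Of the 25 large-subunit genes that fell with ΔNp53:WTp53, 18 (72.0%) did, below the 86.4% of falls over all genes. Against WTp53 of their own set, 58 of the 73 genes (79.5%) had the same sign, beside 59.4% of all genes, with r = 0.33 beside 0.42.

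Over the 4 comparisons with vector, 16 genes fell in each: MRPL1, MRPL15, MRPL22, MRPL35, MRPL44, MRPL45, MRPL47, MRPL50, MRPS5, MRPS10, MRPS14, MRPS18B, MRPS22, MRPS27, MRPS30 and MRPS31. Rises in each were those of MRPL18, MRPL39, MRPL49 and MRPS26. MRPL27, MRPL32, MRPL36, MRPL38, MRPL53, MRPL55 and MRPS34 passed the test in none of the 6 comparisons. These counts were not taken over all genes, and comparisons within a set share arrays. Over all genes, 71.7% of the first-set falls with WTp53 recurred with WTp53 in the second set. Of the falls with ΔNp53:WTp53, 86.4% recurred with tethered WTp53, so such lists are not read as particular to these genes. For MRPL36 a dimmer probe set, not used here, was lower with tethered WTp53, at 11.09, 10.86 and 11.04, than with vector, at 11.31, 11.26 and 11.23. In the first set it had 8.21, 8.03 and 8.04 with ΔNp53:WTp53 and 8.23, 7.93 and 7.88 with WTp53. Both lay below its vector arrays, at 8.53, 8.44 and 8.39, so the probe sets of MRPL36 differ.

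Promoter sequence was read for all of the genes that had an entry, and 4 windows are printed for genes with large differences. RefSeq windows of 300 bases, from 250 before to 50 after the gene start on build GRCh38.p14, were found for 66 of the 73 genes. Shown are the strongest rise, MRPL49, the deepest fall with WTp53 in the first set, MRPS30, and the deepest falls with tethered WTp53 against WTp53, MRPS18C and MRPL46. They lie at chr11:65121933-65122232 on the plus strand, chr5:44808697-44808996 on the plus strand, chr4:83455808-83456107 on the plus strand and chr15:88467339-88467638 on the minus strand. Capitals mark matches to CCGGAAG (ETS factors), to AAGATGGCG (YY1) and to the palindromic NRF1 motif, searched on both strands, and these motifs belong to factors known to act at genes for mitochondrial proteins.
MRPL49: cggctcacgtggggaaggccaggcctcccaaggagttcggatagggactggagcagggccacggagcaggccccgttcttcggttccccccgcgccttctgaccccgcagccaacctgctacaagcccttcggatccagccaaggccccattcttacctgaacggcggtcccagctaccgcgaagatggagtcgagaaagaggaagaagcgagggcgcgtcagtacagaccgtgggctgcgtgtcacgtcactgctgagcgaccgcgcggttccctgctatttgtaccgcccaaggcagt
MRPS30: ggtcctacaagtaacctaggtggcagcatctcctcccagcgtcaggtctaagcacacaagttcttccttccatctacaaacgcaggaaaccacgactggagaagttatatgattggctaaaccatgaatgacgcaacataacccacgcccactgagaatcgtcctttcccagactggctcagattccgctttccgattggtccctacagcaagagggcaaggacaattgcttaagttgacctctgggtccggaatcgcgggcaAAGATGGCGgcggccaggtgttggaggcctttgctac
MRPS18C: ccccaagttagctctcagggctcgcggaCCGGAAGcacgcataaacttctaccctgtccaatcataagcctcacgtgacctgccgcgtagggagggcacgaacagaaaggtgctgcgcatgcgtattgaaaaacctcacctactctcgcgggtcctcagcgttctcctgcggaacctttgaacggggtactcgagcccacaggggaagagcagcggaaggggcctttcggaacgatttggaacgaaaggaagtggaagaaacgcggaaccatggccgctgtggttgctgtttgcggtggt
MRPL46: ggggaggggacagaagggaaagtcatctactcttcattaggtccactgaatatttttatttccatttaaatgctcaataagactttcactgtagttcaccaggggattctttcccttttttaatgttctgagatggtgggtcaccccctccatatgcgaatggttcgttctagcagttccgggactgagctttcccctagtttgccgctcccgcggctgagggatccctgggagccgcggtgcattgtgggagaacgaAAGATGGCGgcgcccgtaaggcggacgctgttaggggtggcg
The MRPL49 window held none of the 3 motifs. MRPS30 and MRPL46 each held a YY1 match close to the gene start, and MRPS18C an ETS match near the upstream end.

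The ETS letters occurred in 28 of the 66 windows (42.4%), beside 10.7% of all 27305 windows. YY1 letters were in 12 (18.2%), beside 1.85%, and NRF1 matches in 8 (12.1%), beside 6.28%. At least 1 of the 3 was in 41 windows (62.1%), beside 17.0%. Among genes that fell with tethered WTp53 against WTp53, 29 of 45 windows (64.4%) held at least 1, and among those without a call 12 of 20 (60%). Against vector the order differed between constructs: 24 of 37 falls (64.9%) and 16 of 25 uncalled genes (64%) with ΔNp53:WTp53, 17 of 23 (73.9%) and 23 of 37 (62.2%) with WTp53 in the first set, 27 of 45 (60%) and 13 of 17 (76.5%) with tethered WTp53, and 11 of 19 (57.9%) and 25 of 38 (65.8%) with WTp53 in the second. A p53 half-site, named by its consensus, was in the windows of MRPL19, MRPL32, MRPL47 and MRPS18B (6.06%), beside 6.54% of all windows. Pairs of half-sites at most 13 bases apart were in 0 of the 66 windows and 8 of all. Of 3 other motifs searched, CCAAT was in 30.3% of the 66 windows, beside 35.7% of all. The E-box CACGTG was in 9.09%, beside 7.43%, and TTTGAA (CHR) in 6.06%, beside 15.4%. The 27305 windows were not matched to the measured genes or to their brightness. Such matches are letters only, and overlaps between motifs were allowed.

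Genes that work with the mitochondrial ribosome were counted from a list of 15 measured translation factors and one of 25 measured assembly factors. With ΔNp53:WTp53 against vector, 19 assembly factors fell and 1 rose (median −0.52), and with WTp53 15 fell and 2 rose (median −0.56). In the second set 20 fell and 2 rose with tethered WTp53 (median −0.32) and 13 fell and 2 rose with WTp53 (median −0.16). Falls were 76%, 60%, 80% and 52% of the 25, in that order. Of all genes 20.3%, 16.6%, 26.2% and 18.9% fell, and of the brighter genes 35.9%, 28.4%, 43.8% and 30%. TFB1M, which methylates the small ribosomal RNA, fell by 1.51 ± 0.21 with WTp53 in the first set and 0.65 ± 0.06 in the second (limma adjusted p = 4.94e-04 and 1.08e-05). MTERF3, which takes part in assembly of the large subunit, fell by 1.34 ± 0.17 with ΔNp53:WTp53 (limma adjusted p = 2.89e-04). NOA1, a GTPase of small-subunit assembly, went the other way: it rose by 1.10 ± 0.09 with ΔNp53:WTp53 and by 0.72 ± 0.05 with tethered WTp53 against vector (limma adjusted p = 3.88e-05 and 3.56e-07). NOA1 was also higher with ΔNp53:WTp53 than with WTp53, by 0.63 ± 0.09 (limma adjusted p = 0.0117), and higher with tethered WTp53 than with WTp53, by 0.41 ± 0.05 (limma adjusted p = 1.47e-04).

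Translation factors gave 7 falls and 1 rise with ΔNp53:WTp53, 7 and 2 with WTp53 in the first set, 9 and 1 with tethered WTp53 and 8 and 0 with WTp53 in the second set, all against vector. Of the brighter genes 35.9%, 28.4%, 43.8% and 30% fell in these comparisons. Of the 15 translation factors 46.7%, 46.7%, 60% and 53.3% fell. GFM1, the elongation factor that moves the ribosome along, had the largest of these falls, by 1.12 ± 0.14 with ΔNp53:WTp53, 0.97 ± 0.14 and 0.60 ± 0.05 with WTp53 in the first and second set, and 1.07 ± 0.05 with tethered WTp53 (limma adjusted p = 2.45e-04, 5.40e-04, 8.22e-06 and 5.46e-08). PTCD3 and CHCHD1 are small-subunit proteins with names of another kind. PTCD3 fell by 0.81 ± 0.11 with WTp53 in the first set (limma adjusted p = 4.09e-04), and CHCHD1 fell by 0.50 ± 0.07 with tethered WTp53 against WTp53 (limma adjusted p = 5.94e-04), where PTCD3 rose by 0.15 ± 0.05 (limma adjusted p = 0.0295).

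The 58 measured genes of the cytosolic ribosome were counted for comparison. With WTp53 in the second set 20 rose and 0 fell (median 0.08), and in the first 7 rose and 0 fell (median 0.06). Those rises are 34.5% and 12.1% of the 58, beside 29.4% and 22.9% of the brighter genes, so neither share of rises is read as particular to them. ΔNp53:WTp53 gave 2 rises and 1 fall, and tethered WTp53 6 of each. Against WTp53, tethered WTp53 gave 20 falls and 0 rises among them (median −0.10). Those falls are 34.5% of the 58, beside 34.3% of the brighter genes, so their share is not read as particular to them either. Differences from WTp53 were below 0 in 56 of the 58 with tethered WTp53 and in 53 with ΔNp53:WTp53 (median −0.09). The difference between the cytosolic and mitochondrial genes was not tested.

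**Figure D5:**
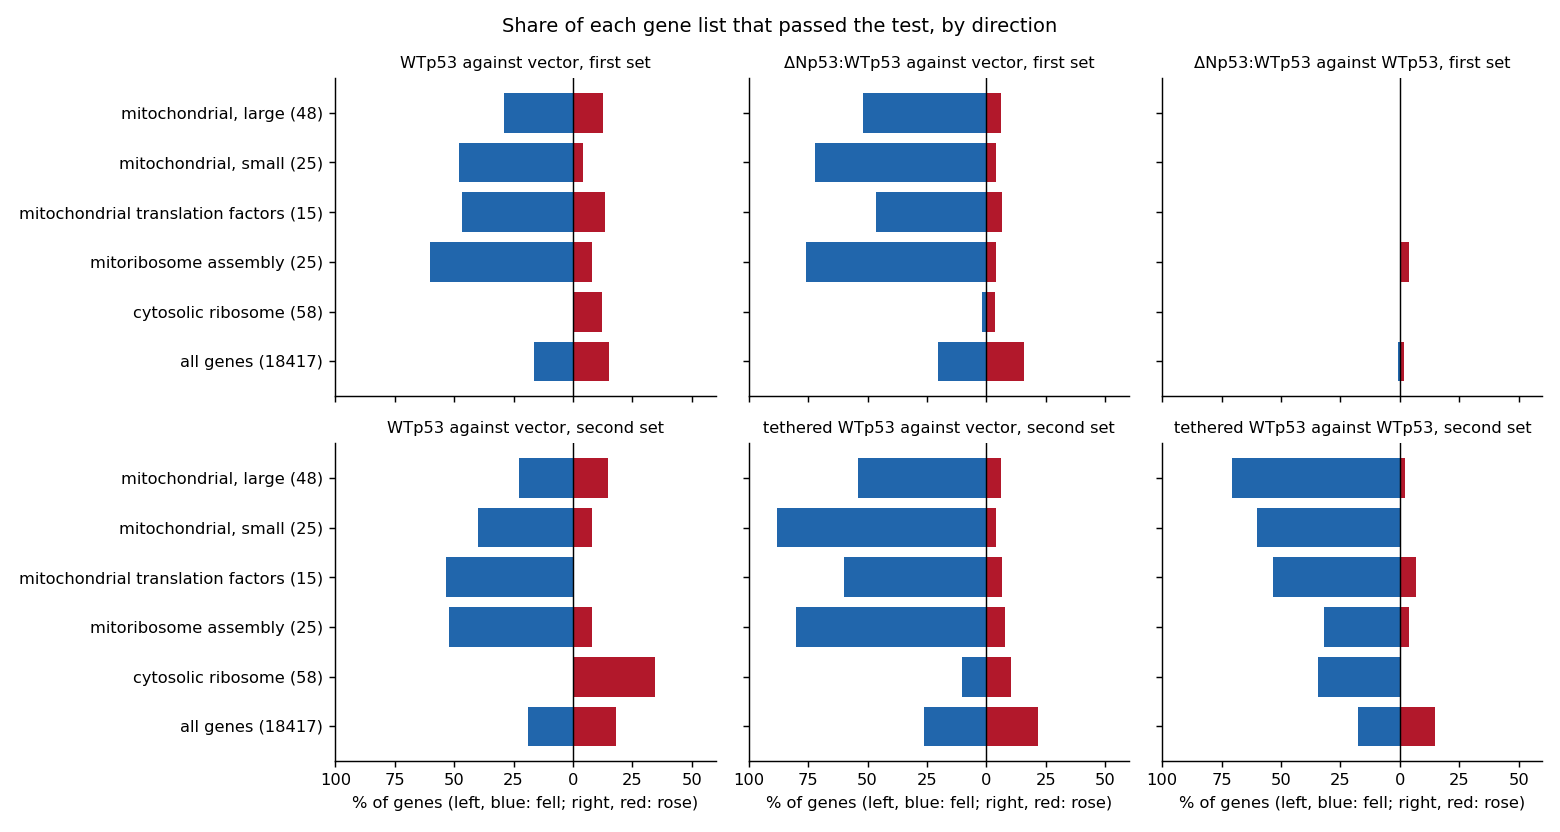
Percentage of each gene list that fell (left, blue) or rose (right, red) by limma at adjusted p below 0.05 in the 6 comparisons, with the number of genes in brackets. Falls outnumber rises for the mitochondrial lists in every comparison with vector, and 20 of 58 cytosolic ribosomal genes rose with WTp53 in the second set.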

How the data were processed

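Expression was read from the log2 values deposited by the authors, who summarised the arrays with RMA in Affymetrix Expression Console, per the submitters' processing notes, in versions not given in the sources used here. RMA scales all arrays of a batch to one distribution, so a shift shared by all genes is not seen. The table holds 33297 probe sets, of which 19460 carry 1 symbol, 1754 carry several and 12083 are not listed in the probe table. First-set array medians were 4.89 to 4.97 and second-set medians 7.01 to 7.07, and each set was fitted alone. No signal over background was computed. Precision is limited by having 3 arrays per group.

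Each set's 9 arrays were modelled with a mean per group in limma 3.58.1 (R 4.3.3), and two-sided p-values were adjusted by Benjamini-Hochberg over 18417 genes. The fit was tested on simulated data. No set test was run. Windows and values were handled in Python 3.11.15.

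The 73 genes and all lists were chosen with earlier results of these data known. Genes given with values are the 5 largest called rises and falls per comparison, the stalk and S18 genes, MRPL41, MRPS30 and MRPS12, and up to 3 called genes of each related list. MRPL4, MRPL33 and MRPS11 were added after their values were seen. The transfected gene itself is not reported here.

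In the first set all 9 correlations of residuals between same-experiment arrays were above 0.1 (0.11 to 0.57). The 6 between experiments 4 and 5 were also above it (0.14 to 0.35), and experiment 0 stood apart from both (−0.50 to −0.17). The residuals thus set experiment 0 apart and do not separate 4 from 5. First-set calls come from the fit without pairing, and the replicate block is an alternative. In the second set 2 of the 9 same-letter correlations were above 0.1 (−0.04 to 0.13), and the letters were treated as labels. Alternatives were another fit over all 18 arrays, the 6 compared arrays, a replicate block, trended and robust moderation, the mean of probe sets, dim genes left out, equal medians and 1 array left out, and, chosen after seeing the data, 1 experiment left out.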

Additional observations from a re-analysis of the deposited data

Results flagged for a closer look

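MRPL33, the relative of a bacterial large-subunit protein, stood out because WTp53 moved it in opposite directions against vector in both sets of arrays, with every same-experiment pair on one side. In the first set it had 6.68, 6.67 and 6.88 with WTp53 and 6.91, 7.27 and 7.13 with vector (−0.36 ± 0.11 SE, limma adjusted p = 0.034). In the second set it had 9.23, 9.15 and 9.30 with WTp53 and 9.06, 8.99 and 9.0 with vector (0.21 ± 0.05, limma adjusted p = 0.00609). The difference between the sets was not tested. With ΔNp53:WTp53 and with tethered WTp53 it fell against vector in both sets, by 0.64 ± 0.11 and 0.19 ± 0.05 (limma adjusted p = 0.00176 and 0.00792). Opposite calls of WTp53 against vector occurred in 1 of the 73 genes and in 45 of 18417 genes.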

How the results depend on the processing

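No named gene reversed its direction in any alternative where it was called. Over the named genes and all alternatives, 1805 values kept their side of the threshold, 137 lost a call and 22 gained one.

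For ΔNp53:WTp53 against vector the 47 called genes became 31 to 52 without 1 array, 3 without experiment 4 and 12 without experiment 5. WTp53 against vector in the first set gave 33, with 18 to 34 without 1 array, 7 without experiment 4 and 7 without experiment 5. Without 1 array, 28.2% to 42.2% of all genes were called with ΔNp53:WTp53 and 23.6% to 37.0% with WTp53. For ΔNp53:WTp53 against WTp53 the count of 0 became 16 with all 18 arrays in one fit, 3 with dim genes left out, 1 with an intensity trend and robust moderation, 7 without experiment 0 and 0 to 11 without 1 array. WTp53 against vector in the second set gave 30, with 11 in the fit of all 18 arrays, 19 without experiment d and 17 without experiment f, and 21 to 36 without 1 array. The shares of all genes called there were 19.6%, 27.7%, 29.5% and 31.6% to 37.8%. The counts with all 18 arrays, without experiment d and without experiment f lie below the general share. Tethered WTp53 against WTp53 gave 50, with 23 in the fit of all 18 arrays, 27, 27 and 31 without experiments d, e and f, and 36 to 49 without 1 array. Tethered WTp53 against vector gave 52, with 46 to 54 without 1 array. Without 1 array, 24.3% to 31.4% of all genes were called for tethered WTp53 against WTp53 and 43.5% to 47.0% against vector. The causes were not tested, beyond the smaller number of arrays where arrays were left out.

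With the replicate block, the paired fit, 46 genes were called for ΔNp53:WTp53 against vector and 33 for WTp53 against vector in the first set. There 38.6% and 35.0% of all genes were called. The paired fit lost the call of MRPL43 with ΔNp53:WTp53. In the second set, where letters are labels only, it lost MRPL48 and MRPS5 with WTp53 against vector, MRPL28 with tethered WTp53 against vector and MRPS18A with tethered WTp53 against WTp53, and gained others. For the subunit medians, 229 values moved by less than the spread between arrays and 11 moved more. With equal array medians, those of tethered WTp53 against vector became −0.37 for the small and −0.26 for the large subunit, those of WTp53 against vector in the second set −0.12 and −0.04, and that of the large subunit with WTp53 in the first set −0.13. The small-subunit median of WTp53 against vector in the second set was −0.11 without experiment d, −0.10 and −0.11 without its vector arrays of d and e, and the large-subunit median −0.02 without that of e. For tethered WTp53 against vector the small-subunit median was −0.25 with dim genes left out.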
